A study of Mus musculus with 24 samples.

Results

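Bone marrow-derived macrophages (BMDMs), macrophages grown in culture from marrow precursors, of WT mice were compared after polarization with lipopolysaccharide (LPS) plus interferon-γ (WT M1) and without polarization (WT M0). The comparison rests on 8 of the 24 libraries of the series, 4 of each group, and covers every gene with enough counts in either direction. All cells were first kept for 7 days in 10 ng/ml M-CSF, the growth factor that drives marrow precursors to become macrophages. WT M0 cells received no polarizing agent, and WT M1 cells received 10 ng/ml LPS together with 25 ng/ml IFN-γ for 16 h. Both agents were given at once, so their separate parts in any change cannot be told apart. The other 16 libraries are of WT cells given 10 ng/ml IL-4 (WT M2) and of cells labelled Ltb4r2-/-, for a deletion of the leukotriene receptor BLT2, in the same 3 states. Of 24557 genes counted, 11689 had a count in the 8 libraries, and 3047 had enough counts to be tested, which held 97.8% of the counts of these libraries.

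LPS, a component of the outer membrane of Gram-negative bacteria, is sensed by Toll-like receptor 4, whose adaptors lead to the transcription factors NF-kB, AP-1 and the interferon regulatory factors. IFN-γ acts through its own receptor and the JAK-STAT pathway on gamma-activated sites (GAS) in DNA, while the interferons that macrophages release in response to LPS act through other receptors of that pathway on interferon-stimulated response elements (ISRE). Together they are known to drive an antimicrobial state in which macrophages make nitric oxide and itaconate, present antigen, secrete chemokines and shift towards glycolysis.

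Libraries held 445115 to 550992 counts in WT M0 and 514359 to 729580 in WT M1. At this depth 3 counts, the limit that a count of 0 allows, correspond to 4.66 to 7.79 CPM (counts scaled to a fixed library size, with TMM factors) in a library. No library stood apart, with median correlations to the others of its own group of 0.943 to 0.955. Ltb4r2 had 0 counts in each of the 12 WT libraries and 0 to 5 in each of the 12 labelled Ltb4r2-/-, where 5 libraries held a count, so its few counts all lie in libraries labelled as lacking it and do not check the label. No marker of stromal cells, mast cells, lymphocytes or neutrophils had enough counts to be tested, and Ly6g, Mpo, Cd3e, Kit, Col3a1 and Cdh5 had 0 counts in all 8 libraries. Mpo and Cd3e overlap antisense genes, Gm11505 and Gm48719, that are not rows of the count table. A count of 0 under a marker does not show that its cell type was absent. Of 12 dendritic cell markers 4 were tested, of which Xcr1 and Bst2 rose and Clec9a fell, while Flt3 and Zbtb46 had 0 counts in all 8 libraries. The summed level of those 12 markers was 42.7 to 59.5 CPM in WT M0 and 552 to 856 CPM in WT M1. Most of the WT M1 level was Xcr1 alone, so the sum does not describe the markers as a class. The part of dendritic cells in any result was not tested. In bulk RNA, fewer cells of a type and less RNA per cell cannot be told apart.

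A property of the counts bears on every gene named below and on the cell type markers above. Genes whose exons overlap exons of another gene on the opposite strand were 24.3% of the genes with a position in the annotation (5931 of 24378), yet they held 90.6% of the WT M0 counts and 92.4% of the WT M1 counts. Actb, the β-actin gene, which has no such overlap, had 33 to 53 counts per library in WT M0 and 61 to 133 in WT M1. The labels say that the kit marks strand, and how strand was handled in counting is not given in the sources used here. Counts under a symbol and reads of the gene across from it therefore cannot be told apart, and the opposite-strand gene is named below for genes given library by library, though not for every gene given by its fold change alone. Reads of a transcript that the annotation does not hold cannot be told apart either.

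LPS plus IFN-γ changed the counts of about every other gene that could be tested. Of 3047 genes, 819 rose (26.9%) and 741 fell (24.3%) in WT M1 against WT M0 at the 0.05 level (Benjamini-Hochberg adjusted, quasi-likelihood test of edgeR), so that 51.2% were called in either direction. In 750 genes (24.6%) all 4 WT M1 libraries lay above all 4 WT M0 libraries, and in 663 (21.8%) they lay below. Among the called genes, 610 rose and 559 fell by more than 1 on the log2 scale, 206 rose and 123 fell by more than 3, and 84 rose and 30 fell by more than 5. The median log2 fold change was 1.67 over the genes that rose, −1.61 over those that fell and −0.02 over all genes tested. Among the tested genes, 48 had 0 counts in all WT M0 libraries, of which 38 rose, and 30 had 0 counts in all WT M1 libraries, of which 19 fell.

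**Figure D1:**
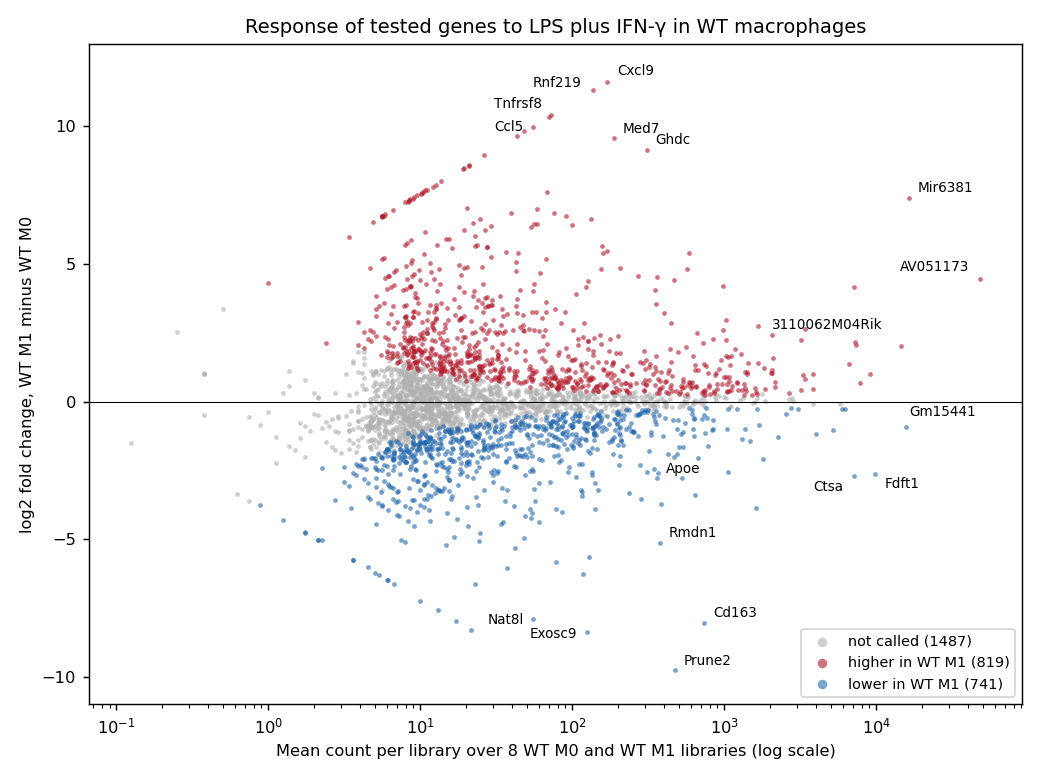
Log2 fold change of each of the 3047 tested genes (vertical axis, WT M1 minus WT M0) against its mean count per library (horizontal axis, log scale), with genes called higher in red, lower in blue and not called in grey. Named are genes such as Cxcl9 and Prune2 at the ends of the 819 rising and 741 falling genes, where values of genes with almost no counts in 1 group depend on the prior count, and the most abundant symbols, AV051173 and Mir6381, both rose.

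The balance of rising and falling genes depends on the scaling. One symbol, AV051173, took 0.84 to 1.30% of the counts of WT M0 libraries and 14.6 to 15.3% of those of WT M1 libraries. TMM scaling factors, which allow for such shifts, were 1.10 to 1.23 in WT M0 and 0.73 to 0.77 in WT M1. Of the called genes 52.5% were higher with TMM, 50.3% with the RLE size factors of DESeq2 and 25.9% with total counts alone, under which 475 rose and 1358 fell and the median log2 fold change was −0.64. With total counts after leaving out the 5 most abundant genes, a setting chosen after the data were seen, 613 rose and 1059 fell, and the median was −0.36. Directions below are relative to TMM, and the counts of a gene list with total counts are given in parentheses where they differ. A gene near 0 in WT M0 could be tested only where WT M1 had enough counts, so the counts of a list describe its tested members and not the whole list. They are to be set beside the 26.9% that rose and the 24.3% that fell of all genes tested. Some lists are also given with no limit on low counts. In that setting 818 of 13709 genes rose and 847 fell, which are the shares to set beside such counts.

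The genes with the largest rises and no exon across from them were immune effectors beside genes of other functions. Cxcl9, a chemokine induced by IFN-γ that attracts activated T cells, had 0 counts in every WT M0 library and 266, 455, 272 and 357 counts in the WT M1 libraries, a rise of at least 574-fold when 3 counts over the group stand in for 0 (adjusted p = 8.25e-17). Ccl5, a chemokine for T cells and monocytes, went from 0 in all 4 to 103, 152, 65 and 119 counts (at least 187-fold, adjusted p = 2.31e-12). Tnfrsf8, which encodes the TNF receptor family member CD30, went from 0 in all 4 to 198, 113, 138 and 131 counts (at least 247-fold, adjusted p = 6.97e-14). The groups were thus fully separate for all 3, with no count in any WT M0 library. Acod1, the enzyme that makes itaconate, had 2, 2, 0 and 0 counts in WT M0 and 120, 142, 89 and 111 in WT M1, a log2 fold change of 7.02 (SE 0.48, adjusted p = 2.56e-14). Rsad2, the antiviral enzyme viperin, had 0, 0, 2 and 4 counts in WT M0 and 131, 83, 103 and 127 in WT M1 (6.47, SE 0.47, adjusted p = 9.41e-14). Gm4841, a predicted gene on chromosome 18, had 0, 0, 0 and 3 counts in WT M0 and 164, 125, 131 and 124 in WT M1, a ratio of 231 (95% counting interval 78.8 to 1126).

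Genes not known as immune effectors rose as far. Rnf219, which encodes a ubiquitin ligase, had 0 counts in all 4 WT M0 libraries and 285, 292, 238 and 274 in WT M1, at least 463-fold higher (adjusted p = 3.14e-17). Ghdc, which encodes a protein with a GH3 domain, had 0, 0, 1 and 4 counts in WT M0 and 632, 677, 583 and 567 in WT M1 (9.15, SE 0.34, adjusted p = 4.03e-21). Nelfe, a subunit of the negative elongation factor of RNA polymerase II, had 0, 5, 7 and 1 counts in WT M0 and 288, 319, 272 and 165 in WT M1 (6.62, SE 0.41, adjusted p = 1.23e-15). In each of them the lowest WT M1 library was far above the highest WT M0 library. Nelfe lies 2 bases from Cfb, which encodes complement factor B on the opposite strand and had 600 counts in WT M0 and 439 in WT M1 (log2 fold change −0.12, adjusted p = 0.548). Fundc1, a receptor that marks mitochondria for removal, had 2, 0, 0 and 4 counts in WT M0 and 89, 186, 87 and 102 in WT M1 (6.47, SE 0.51, adjusted p = 9.51e-13).

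The genes with the largest falls included a marker of homeostatic macrophages and genes known from neurons, platelets and steroid-making cells. Prune2, known for a domain shared with BNIP2 and Cdc42GAP, fell from 1032, 902, 853 and 992 counts to 1, 2, 0 and 0, a ratio of 987 (95% counting interval 337 to 4787, adjusted p = 1.65e-22). Cd163, the scavenger receptor for haptoglobin-hemoglobin complexes, fell from 1582, 1462, 1538 and 1257 counts to 4, 5, 4 and 4, a log2 fold change of −8.04 (SE 0.26, adjusted p = 5.17e-23). Nat8l, which makes N-acetylaspartate, fell from 116, 97, 149 and 75 counts to 0, 1, 0 and 0 (ratio 342, 95% counting interval 61.1 to 13551, adjusted p = 1.69e-12). Every WT M1 library of these 3 was close to 0 while no WT M0 library had fewer than 75 counts. Rmdn1, a regulator of microtubule dynamics, fell from 702, 788, 806 and 658 counts to 10, 25, 10 and 21 (−5.14, SE 0.26, adjusted p = 5.98e-18). Osbpl11, an oxysterol-binding protein, fell by 4.04 on the log2 scale (SE 0.38), while Gp1ba, a platelet glycoprotein (−3.18, SE 0.29), Bsn, a presynaptic scaffold (−2.97, SE 0.27), and Star, a carrier of cholesterol into mitochondria (−2.74, SE 0.23), fell less far. Ifi27l2a, named for its induction by interferon, fell from 294, 266, 293 and 240 counts to 21, 29, 18 and 24 (−3.22, SE 0.16, adjusted p = 7.56e-18), opposite to most genes of the interferon lists. Apoe, a lipid carrier, fell from 567, 625, 840 and 562 counts to 24, 164, 48 and 67 (−2.79, SE 0.32, adjusted p = 3.60e-09), where WT M1 replicate 2 had the 164 counts and still lay below every WT M0 library.

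**Figure D2:**
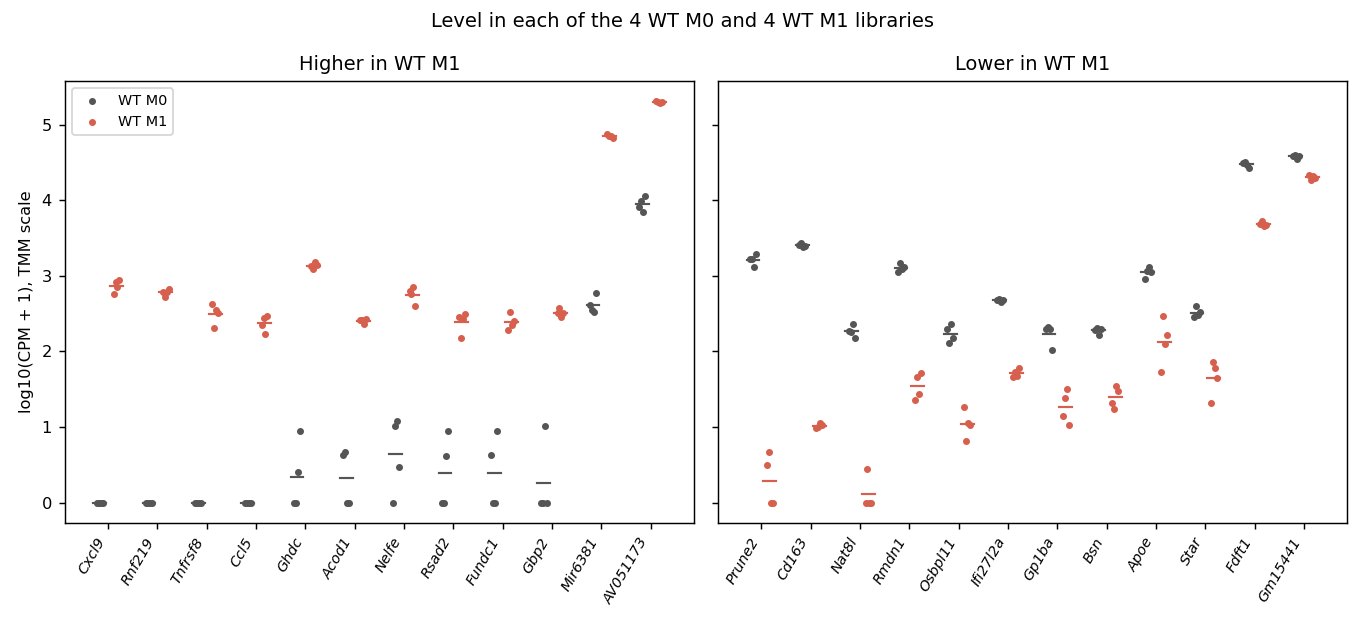
Level of 24 genes named in the text in each of 4 WT M0 libraries (dark grey) and 4 WT M1 libraries (red), as log10(CPM + 1) on the TMM scale, with short lines at the group means. In each gene every WT M1 library lies on one side of every WT M0 library, and Cxcl9, Rnf219, Tnfrsf8 and Ccl5 are at 0 in all WT M0 libraries.

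Among the genes with the largest changes, those with an exon across from them could be read together with that gene. The microRNA gene Mir6381 (chr3:142623860-142623946, minus strand, mm10) lies within Gbp2, an interferon-inducible GTPase on the plus strand, and shares 24 bases with an exon of it. Its counts went from 255, 190, 213 and 302 to 35230, 39288, 27671 and 27525 (log2 fold change 7.41, SE 0.21, adjusted p = 2.40e-24), and those of Gbp2 from 0, 0, 6 and 0 to 150, 210, 110 and 131 (6.86, SE 0.44, adjusted p = 5.13e-15). The libraries were made from mRNA and so do not measure the mature microRNA, which RefSeq (GRCm38.p6) gives at chr3:142623925-142623945 and which is shown, with its seed (bases 2 to 8) in capitals, because Mir6381 held more counts than any other rising gene but AV051173.
mmu-miR-6381: cAGGAUGCuggugacaugagu
Both symbols rose in every WT M1 library, and over the 8 libraries Mir6381 had 130674 counts against 607 of Gbp2. Bcl2l14, a member of the BCL2 family, rose from 0 counts in WT M0 to 563 over the 4 WT M1 libraries, at least 240-fold. Med7, a subunit of Mediator, rose from 2 counts to 1494, a ratio of 954 (95% counting interval 264 to 7882). Bcl2l14 shares 577 bases with the antisense gene 4933406J09Rik, and Med7 shares 609 with the long noncoding RNA 2310031A07Rik, neither of which is a row of the count table.

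Among the genes with the largest falls that had a partner, the partner fell too, was not called or could not be tested. Exosc9, a subunit of the RNA exosome, fell from 205, 332, 87 and 366 counts to 1, 0, 1 and 0, while Ccna2, the S phase and mitotic cyclin across from it over 510 bases, had 448, 364, 412 and 322 counts in WT M0 and 262, 405, 221 and 309 in WT M1 (log2 fold change −0.02, SE 0.12, adjusted p = 0.890). Only 1 symbol of this pair was called. Ccdc152 fell from 618 to 8 counts over the group (−5.85, SE 0.33), and Selenop, the selenium carrier selenoprotein P across from it over 439 bases, fell from 262 to 9 (−4.44, SE 0.50). Both symbols of that pair fell in every library. Ccdc127 fell by 5.65 (SE 0.49) and Lrrc14b across from it, over 2755 bases, by 0.82 (SE 0.14), on the log2 scale. Dnajb13, a chaperone of cilia, fell by 4.38 (SE 0.28), and Ucp2, a mitochondrial carrier across from it, had a log2 fold change of −0.79 (SE 0.49, adjusted p = 0.189). Mbd4, a DNA glycosylase, fell by 4.22 (SE 0.31) and 9130019P16Rik by 6.26 (SE 0.30), on the log2 scale. Mbd4 overlaps Gm44206, which is not a row of the count table, and 9130019P16Rik overlaps Chn2, Prr15 and Wipf3, none of which had enough counts to be tested.

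The 5 symbols with the most counts all lay across from a protein-coding gene with far fewer counts. AV051173, a long noncoding RNA that shares 279 bases with Prdx1, an antioxidant enzyme, rose from 5094, 5261, 4502 and 5792 counts to 95465, 110055, 75230 and 83618 (log2 fold change 4.47, SE 0.23, adjusted p = 1.41e-17). Prdx1 itself rose from 18, 15, 16 and 9 counts to 239, 315, 170 and 227 (4.37, SE 0.27, adjusted p = 2.24e-15), so both rose by a similar factor at very different counts. 3110062M04Rik, which shares 2168 bases with Tmem140, rose from 27586 to 88315 counts (2.03, SE 0.14), whereas Tmem140 fell from 763 to 122 (−2.27, SE 0.20, adjusted p = 9.03e-12). Fdft1, which makes squalene, fell from 19618, 17380, 19077 and 13679 counts to 2262, 2965, 1750 and 1956 (−2.62, SE 0.12, adjusted p = 3.12e-19), and Ctsb, the lysosomal protease cathepsin B across from it over 774 bases, had 436 counts in WT M0 and 376 in WT M1 (0.11, SE 0.19, adjusted p = 0.657, and −0.51 with total counts). Gm15441 fell from 88119 to 36716 counts (−0.91, SE 0.11), and Txnip, the inhibitor of thioredoxin across from it over 606 bases, had 25 and 23 (0.19, SE 0.63, adjusted p = 0.828).

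Over all pairs, opposite-strand partners often differed in their calls. In 511 pairs both symbols were tested, and in the median pair one symbol had 4.41 times the counts of the other. Both symbols rose in 62 pairs, both fell in 43, they were called in opposite directions in 57, one was called in 245 and neither in 104. Of the tested genes with an opposite-strand exon 510 of 1883 rose (27.1%) and 504 fell (26.8%), and of those without one 303 of 1146 rose (26.4%) and 232 fell (20.2%), beside 26.9% and 24.3% of all genes tested. Antisense genes, a class of the annotation, were 157 of the tested genes, of which 54 rose and 41 fell, and protein-coding genes were 2719, of which 722 rose and 650 fell.

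**Figure D3:**
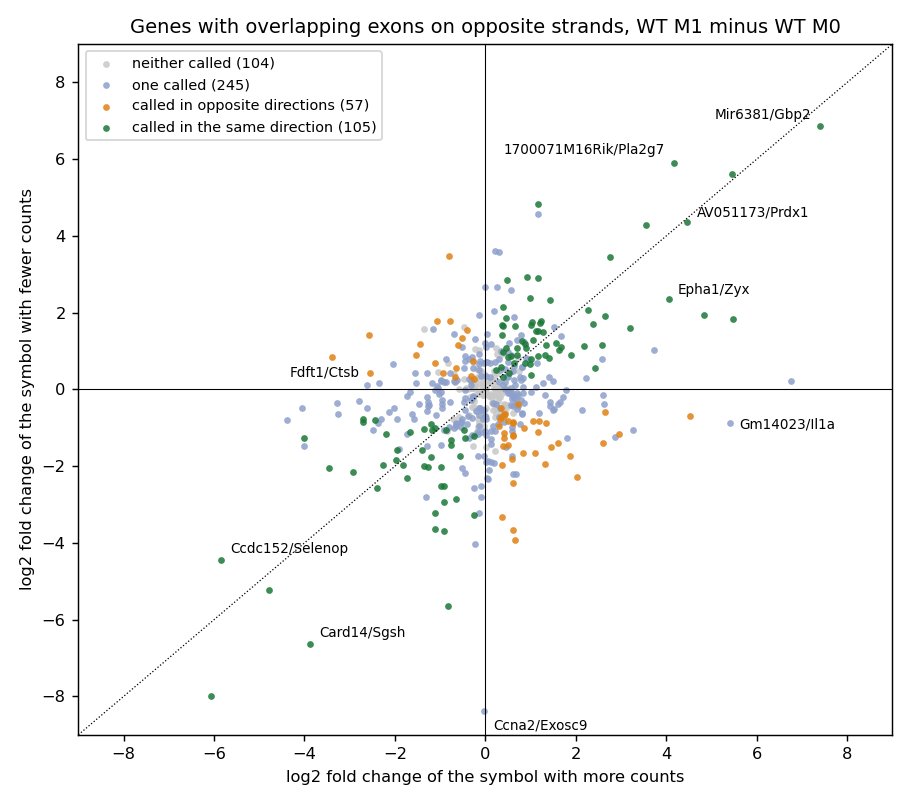
Log2 fold change (WT M1 minus WT M0) of the symbol with more counts (horizontal axis) and of the one with fewer counts (vertical axis) in each of 511 pairs of genes whose exons overlap on opposite strands, with the dotted line marking equal changes. The 62 pairs in which both rose lie in the upper right and the 43 in which both fell in the lower left, the 57 called in opposite directions in the other corners, and Ccna2 with Exosc9 lies far below the line.

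Sensors of bacterial products and the factors downstream of interferon receptors mostly rose where they could be tested. A pair of counts given for a gene is the sum over the 4 libraries of each group. Of 30 LPS receptors and adaptors 2 were tested and both rose, and with no limit on low counts 3 of 29 rose. Tlr1, which forms a receptor for lipopeptides with Tlr2, had 0, 1, 4 and 5 counts in WT M0 and 90, 62, 91 and 97 in WT M1 (5.40, SE 0.48, adjusted p = 4.60e-11), and Cd14, the LPS co-receptor, rose by 2.66 (SE 0.68). Of 8 tested genes among interferon receptors, JAK-STAT and IRF factors 6 rose and none fell (5 and 1 with total counts), where 26.9% and 24.3% of all genes did. With no limit on low counts 10 of 27 genes of this list rose and 1 fell, where 818 and 847 of 13709 genes did. Stat2, a factor of the type I interferon response, rose by 3.69 (SE 0.50), Irf7, the regulator of interferon genes, by 5.61 (SE 0.56) and Stat5b from 3 to 209 counts (ratio 88.9, 95% counting interval 30.0 to 435). Phrf1, across from Irf7, rose by 5.44 (SE 0.50).

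Most interferon-inducible genes that could be tested rose. Interferon-inducible GTPases attack vacuoles that hold pathogens, and the 13 that were tested of 23 on the list rose. The summed level of the list was 33.8 to 57.4 CPM in WT M0 and 1210 to 1520 CPM in WT M1, so members with few counts in WT M0 could be tested only through WT M1. With no limit on low counts 16 of 22 GTPases and 36 of 66 antiviral genes rose, and none fell. The guanylate-binding proteins Gbp5 (4.07, SE 0.40) and Gbp7 (4.29, SE 0.37) and the immunity-related GTPase Iigp1 (from 1 to 162 counts, ratio 207, 95% counting interval 36.6 to 8219) were among them, and Gbp4 went from 0 to 167 counts. Of 31 tested genes of the antiviral interferon response 27 rose and none fell (25 and none with total counts). Ifit2, which binds viral RNA, rose from 10, 2, 4 and 14 counts to 481, 285, 205 and 253 (5.67, SE 0.34, adjusted p = 6.30e-16). Sp110, a nuclear body protein, rose from 210 to 3541 counts over the group (4.43, SE 0.23), and the paired genes Parp9 and Dtx3l, which encode an ADP-ribosyltransferase complex on opposite strands, rose by 2.26 (SE 0.13) and 2.07 (SE 0.15). Slfn5os, across from the antiviral gene Slfn5, rose from 2083 to 11150 counts (2.76, SE 0.16). No tested gene of either list fell with TMM or with total counts. Among the members with no opposite-strand exon 12 of 12 GTPases and 20 of 23 antiviral genes rose.

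Genes of antigen presentation rose in both classes. Of 15 tested genes of MHC class I and antigen processing 12 rose and none fell (10 and 2 with total counts), and with no limit on low counts 15 of 22 rose. H2-T22, a class I molecule, rose from 16, 20, 23 and 12 counts to 388, 411, 376 and 408 (4.84, SE 0.25, adjusted p = 1.80e-17), and A930015D03Rik, across from it over 1003 bases, rose by 1.94 (SE 0.24). Tap1, which carries peptides into the endoplasmic reticulum, rose from 9, 5, 4 and 19 to 328, 351, 302 and 324 counts (5.47, SE 0.31, adjusted p = 1.67e-16), and the immunoproteasome subunit Psmb9, across from it over 212 bases, by 1.84 (SE 0.27). B2m, the light chain of class I, rose by 3.04 (SE 0.27) and H2-Q4 by 3.38 (SE 0.29). Genes across from members of this list rose as well in 4 of 4 cases, among them 9330175E14Rik across from Nlrc5, the transactivator of class I genes (4.16, SE 0.20), and Emc9 across from the proteasome activator Psme1 (2.37, SE 0.14). Of 4 tested genes of MHC class II and costimulation 3 rose, namely Cd274, the checkpoint ligand PD-L1 (6.34, SE 0.53), H2-Ab1, a class II chain (4.85, SE 0.69), and Cd74, the invariant chain (3.99, SE 0.47), while Ctss, the protease that degrades that chain, had a log2 fold change of 0.43 (adjusted p = 0.188). In this list 5 genes rose when any WT M0 library or WT M1 replicate 1 was left out, and 7 of 14 with no limit on low counts. The 3 genes across from members of that list also rose, BC051537 across from H2-Oa (5.41, SE 0.27), Dexi across from the class II transactivator Ciita (3.11, SE 0.34) and Brd2 across from H2-DMa (2.52, SE 0.50).

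Chemokine ligands rose in 4 of 6 tested cases and none fell (with total counts 4 rose and 1 fell), and with no limit on low counts 6 of 22 rose and 2 fell. Cxcl10, a ligand of the same receptor as Cxcl9, went from 0 counts to 155 over the group, at least 66.0-fold higher. Cxcl16, which attracts cells with CXCR6, rose from 80, 95, 78 and 85 counts to 162, 172, 120 and 135 (1.14, SE 0.17), and Zmynd15 across from it from 3194, 3149, 3626 and 2725 to 12030, 13706, 9847 and 9494 (2.18, SE 0.09, adjusted p = 1.12e-19). Ccl3, an inflammatory chemokine, had 928 counts in WT M0 and 563 in WT M1 (−0.33, adjusted p = 0.192). Among 3 tested chemokine receptors Xcr1 rose from 15, 10, 13 and 16 counts to 378, 269, 266 and 275 (4.81, SE 0.25), and Cx3cr1, the fractalkine receptor, fell from 43, 37, 44 and 36 to 0, 2, 2 and 1 (−4.53, SE 0.66), with Gm33858, not a row of the count table, across from it. C3ar1, a complement receptor counted with them, had 55 and 47 counts (0.13, adjusted p = 0.835).

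Several cytokines that LPS is known to induce had few counts. Over the 4 libraries Il6 went from 0 to 2 counts, Tnf from 0 to 17, Il12b from 0 to 6 and Il1b from 2 to 38, none enough to be tested. Of 25 inflammatory cytokines 2 were tested, of which Tnfsf9, the ligand of 4-1BB, rose by 4.59 (SE 0.56) and Il1a had 74 and 33 counts (−0.88, adjusted p = 0.192). With total counts Il1a was called, at −1.47, so that 1 rose and 1 fell. The 4 tested symbols across from cytokine genes all rose, though some of them also lie across from other genes. Apobr shares 442 bases with Cln3, which rose by 0.48, against 103 with Il27. Gm16712 shares 248 bases with Ccdc94 beside 270 with Ebi3, and Il1bos shares only 25 with Il1b. Gm14023, across from Il1a, rose from 31, 47, 30 and 28 counts to 1492, 1039, 1039 and 966 (5.42, SE 0.34, adjusted p = 2.61e-15), Apobr across from Il27 by 2.86 (SE 0.21), Il1bos across from Il1b by 2.82 (SE 0.64) and Gm16712 across from Ebi3 by 1.41 (SE 0.10). Among cytokine receptors and decoys 2 of 7 rose and 2 fell (2 and 3 with total counts), shares near the 26.9% and 24.3% of all genes tested. Tnfrsf1b, a TNF receptor, rose by 2.56 (SE 0.36) and Il2rg, the shared cytokine receptor chain, by 3.38 (SE 0.68), while Il6ra fell by 1.73 (SE 0.24) and Il18bp, the decoy of interleukin 18, by 1.15 (SE 0.46). Numa1, across from Il18bp, rose by 2.96 (SE 0.19). The call of Il18bp was lost without WT M0 replicate 1, 2 or 4 or WT M1 replicate 1 or 3 (−1.17 to −0.92).

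Enzymes that make microbicidal mediators mostly rose where they could be tested, and those of lipid mediators were divided. Of 9 tested genes of nitric oxide, itaconate, arginine and oxidant production 6 rose and none fell (5 and none with total counts), and with no limit on low counts 6 of 16 rose. Beside Acod1 these included Nos2, inducible nitric oxide synthase, which went from 0 counts in all 4 to 88, 119, 59 and 82, Sod2, mitochondrial superoxide dismutase (4.18, SE 0.53), Cybb, the oxidase subunit gp91phox (1.85, SE 0.22), and Slc7a2, an arginine transporter (from 1 to 62 counts). Of 5 tested genes of eicosanoid synthesis and receptors 2 rose and 2 fell (2 and 3 with total counts). Ptgs2, inducible cyclooxygenase, went from 0 in all 4 to 67, 50, 42 and 51 counts, at least 89.4-fold higher, and Ptgs1, the constitutive enzyme, from 29 counts to 0, at least 7.57-fold lower. Pla2g7, which hydrolyses platelet-activating factor, went from 2 to 122 counts, and 1700071M16Rik across from it from 939, 961, 727 and 1097 to 12708, 16722, 10751 and 13400 (4.17, SE 0.24, adjusted p = 2.62e-16). Ptgir, the prostacyclin receptor, fell by 0.91 (SE 0.17).

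NF-kB genes, immediate early genes and genes of cell death and the inflammasome mostly rose where they could be tested. With no limit on low counts 7 of 30 NF-kB genes rose and none fell. In that setting 8 of 24 AP-1 and immediate early genes rose and 1 fell. Of the cell death and inflammasome genes 5 of 26 rose and none fell. Of 7 tested NF-kB subunits, inhibitors and targets 5 rose and none fell (4 and none with total counts), among them Nfkb2 (1.29, SE 0.18), Icam1, an adhesion molecule (2.96, SE 0.64), Tnfaip2 (3.15, SE 0.54) and Cflar, an inhibitor of caspase 8 (3.59, SE 0.65). Of 12 AP-1 and immediate early genes 8 rose and 1 fell (7 and 2 with total counts), with Atf3, a factor that restrains inflammatory genes, at 3.43 (SE 0.38), Klf6 at 2.97 (SE 0.55), Junb at 2.59 (SE 0.49) and Ier5 at 2.53 (SE 0.40). All 5 tested genes of cell death and the inflammasome rose (3 with total counts), with Aim2, a sensor of cytosolic DNA, at 3.50 (SE 0.69), the cell cycle inhibitor Cdkn1a at 2.51 (SE 0.49), the survival factor Mcl1 at 1.63 (SE 0.44) and Mlkl, the effector of necroptosis, at 1.71 (SE 0.36).

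**Figure D4:**
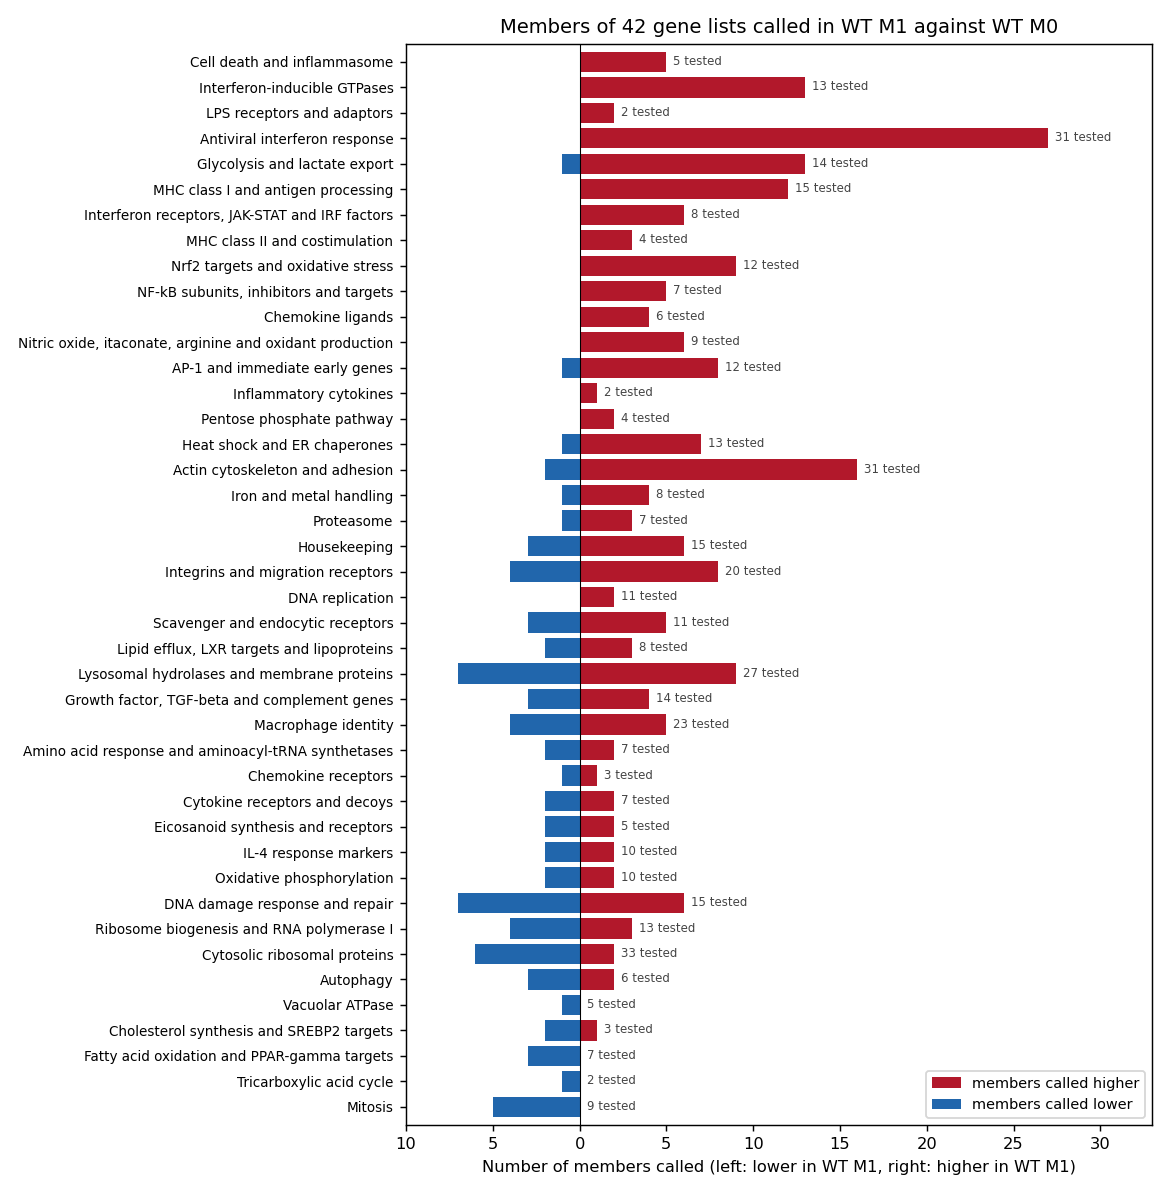
Number of members called lower (blue, to the left) and higher (red, to the right) in WT M1 against WT M0 in each of 42 gene lists, with the number of members tested at the end of each bar. The 13 tested interferon-inducible GTPases and 27 of 31 tested antiviral genes rose, and 5 of 9 mitosis genes fell with none rising.

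Tested genes of glycolysis mostly rose, while the gene that feeds pyruvate into the tricarboxylic acid cycle fell. Of 14 tested genes of glycolysis and lactate export 13 rose and 1 fell (9 and 1 with total counts), and with no limit on low counts 10 of 25 rose. Pkm, pyruvate kinase, rose from 12, 13, 14 and 19 counts to 83, 107, 56 and 59 (2.70, SE 0.26, adjusted p = 1.39e-10), Hif1a, the factor that activates this pathway, by 4.01 (SE 0.53), Gapdh by 2.45 (SE 0.38) and Hk3, a hexokinase, by 4.27 (SE 0.74). Unc5a, across from Hk3, rose from 85, 62, 62 and 67 counts to 607, 898, 515 and 561 (3.56, SE 0.15). Pfkp, platelet phosphofructokinase, fell by 0.81 (SE 0.15), and Pitrm1 across from it rose by 3.49 (SE 0.81). In the pentose phosphate pathway G6pdx (1.60, SE 0.41) and Pgd (1.74, SE 0.47), the enzymes that make NADPH, rose, and Rpe and Tkt, of the branch without oxidation, were not called (0.24, adjusted p = 0.264, and 0.34, adjusted p = 0.703). Pdha1, a subunit of pyruvate dehydrogenase, fell from 294 to 69 counts (−1.74, SE 0.23), and Map3k15, across from it over 603 bases, had 7199 and 5567 (−0.03, adjusted p = 0.804). Of 2 tested genes of the tricarboxylic acid cycle list 1 fell (2 with total counts, and 2 without WT M0 replicate 3 or 4 or WT M1 replicate 4). Of 72 genes of oxidative phosphorylation 10 were tested, of which 2 rose and 2 fell (none and 3 with total counts), shares near the 26.9% and 24.3% of all genes tested. Atp5f1, a subunit of ATP synthase, fell by 1.15 (SE 0.16) and Ndufv3, of complex I, by 0.99 (SE 0.33), while Ndufa2 (1.28, SE 0.32) and Ndufa13 (1.45, SE 0.50), of the same complex, rose. The call of Ndufv3 was lost without WT M0 replicate 3 (−0.83) and that of Ndufa13 without WT M0 replicate 2 (1.14).

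Tested genes of the list of fat oxidation and PPAR-γ targets fell or were not called, and those of sterol handling were divided. Of 7 tested genes of fatty acid oxidation and PPAR-γ targets none rose and 3 fell, namely Acadvl, which starts the oxidation of long-chain fatty acids (−1.22, SE 0.29), Fabp5, a fatty acid carrier (from 38 to 3 counts, ratio 9.92, 95% counting interval 3.15 to 50.2), and Lpl, lipoprotein lipase (−1.03, SE 0.39). Acadvl shares 1151 bases with Dvl2 on the opposite strand. With no limit on low counts 3 of 26 genes of this list fell and none rose. Cd36, a fatty acid receptor, had 24 and 38 counts (1.01, adjusted p = 0.116). Without WT M0 replicate 1 or 4 or WT M1 replicate 2 Lpl was no longer called (−0.97 to −0.81), and without WT M1 replicate 4 Cd36 was (1.29). Sqle, the squalene oxidase of cholesterol synthesis, fell from 189, 225, 223 and 184 counts to 42, 63, 38 and 44 (−1.79, SE 0.16), and Mvd, an earlier enzyme, rose by 1.69 (SE 0.25). Of 8 tested genes of lipid efflux, LXR targets and lipoproteins 3 rose and 2 fell (3 and 4 with total counts, and 4 fell without WT M0 replicate 3). Of all genes tested 26.9% rose and 24.3% fell. Ch25h, which makes 25-hydroxycholesterol, went from 0 to 86 counts and Npc1, which exports cholesterol from lysosomes, rose by 1.15 (SE 0.13), while Apoe and Pltp, a phospholipid transfer protein (−0.84, SE 0.11), fell. Ctsa, the lysosomal protein across from Pltp over 495 bases, fell from 11999, 16578, 10424 and 11542 counts to 838, 3162, 862 and 1557 (−2.71, SE 0.25), with the 3162 counts in WT M1 replicate 2.

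Most tested genes of oxidative stress rose, and those of iron and metal handling rose more often than they fell with TMM but not with total counts. Of 12 tested Nrf2 targets and genes of oxidative stress 9 rose and none fell (8 and 1 with total counts), and with no limit on low counts 11 of 27 rose. Hmox1, heme oxygenase, rose by 3.82 (SE 0.49), and Keap1, the inhibitor of Nrf2, from 1, 2, 6 and 3 counts to 86, 92, 74 and 74 (5.06, SE 0.41), with an antisense gene, Gm16754, across from it. Fth1, the ferritin heavy chain, rose from 124, 64, 123 and 82 counts to 626, 961, 488 and 760 (3.20, SE 0.19, adjusted p = 4.69e-16), and Slc40a1, the iron exporter ferroportin, fell from 62 to 5 counts (−3.15, SE 0.74). Cp, ceruloplasmin, rose by 0.80 (SE 0.12). Of 8 iron and metal genes 4 rose and 1 fell (2 and 2 with total counts).

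Of 23 tested macrophage identity genes 5 rose and 4 fell (4 and 11 with total counts), with a median of −0.39, where 26.9% and 24.3% of all genes tested did. Without WT M1 replicate 4, 7 of them fell. Adgre1, which encodes F4/80, rose by 2.09 (SE 0.29) and Cebpb, a myeloid factor, by 2.80 (SE 0.47), while Cebpa, a related factor, fell from 33, 37, 49 and 34 counts to 2, 4, 2 and 0 (−3.85, SE 0.51), with Gm45091 across from it, and Lyz2, lysozyme, from 282, 166, 312 and 180 to 48, 108, 36 and 32 (−1.74, SE 0.25). Csf1r, the receptor of M-CSF, had 191 and 105 counts (−0.48, adjusted p = 0.217, and called at −0.95 without WT M1 replicate 4), and Hmgxb3 across from it fell from 2610 to 336 (−2.61, SE 0.18). Of 11 tested scavenger and endocytic receptors 5 rose and 3 fell (3 and 5 with total counts). Marco, a receptor for bacteria, went from 2 to 116 counts and Clec4e, the receptor Mincle, rose by 4.27 (SE 0.62), while Cd163 and Folr2, a folate receptor (−2.24, SE 0.48), fell and Mrc1, the mannose receptor, went from 17 counts to 0. Nt5dc2, across from the scavenger receptor Stab1, fell from 7437 to 1012 counts (−2.54, SE 0.16), whereas Stab1 had 2909 and 3080 and was called higher with TMM (0.42, SE 0.11, adjusted p = 0.00155, against −0.19 with total counts). Of 10 tested markers of the IL-4 response 2 rose, Tgm2 (2.17, SE 0.41) and Klf4 (2.19, SE 0.62), and 2 fell, Mrc1 and Il4i1 (−1.74, SE 0.72), or 2 and 3 with total counts. These shares are near the 26.9% and 24.3% of all genes tested. Il4i1 was no longer called without WT M0 replicate 1 or 2 or WT M1 replicate 1, 3 or 4 (−1.77 to −1.46).

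Of 27 tested lysosomal hydrolases and membrane proteins 9 rose and 7 fell (6 and 12 with total counts), shares near the 26.9% and 24.3% of all genes tested, and the symbols across from lysosomal genes mostly fell. Ctsc, cathepsin C, rose by 4.67 (SE 0.30) and Lamp2, a lysosomal membrane protein, by 2.06 (SE 0.45), while Ctsl, cathepsin L (−2.84, SE 0.48), Gusb, β-glucuronidase (−2.66, SE 0.56), and Sgsh, a heparan sulfate sulfatase, fell, the last from 40, 52, 50 and 39 counts to 0, 0, 1 and 0. Of 13 tested symbols across from lysosomal genes 3 rose and 9 fell. Card14, across from Sgsh over 955 bases, fell from 3410, 3161, 3215 and 2416 counts to 161, 159, 146 and 173 (−3.88, SE 0.16, adjusted p = 3.42e-20), and Mast1, across from Dnase2a (−3.74, SE 0.15), fell as well. Ddb2, across from Acp2, rose by 1.35 (SE 0.10), whereas Acp2, an acid phosphatase, fell by 0.87 (SE 0.20). Of 5 tested subunits of the vacuolar ATPase 1, Atp6v0d2, fell, from 17 counts to 0, and Atp6v1d (1.17, adjusted p = 0.0521), Atp6v1b2 (−0.88, adjusted p = 0.313) and Atp6v1g1 (−0.44, adjusted p = 0.566) were not called, although Atp6v1d was without WT M1 replicate 2 (1.30) or 4 (1.38). Of 6 autophagy genes 2 rose and 3 fell (none and 3 with total counts), with Atg7, the activating enzyme of the pathway, falling from 1291, 1000, 1318 and 882 counts to 263, 253, 151 and 173 (−2.07, SE 0.13). Atg3, a conjugating enzyme, fell by 0.96 (SE 0.37), while the autophagy receptor Sqstm1 (1.07, SE 0.40) and Atg4d rose, the latter by 0.36 (SE 0.12) with TMM against −0.25 with total counts. These 3 calls were lost without 1 of several libraries, with values of −0.91 and −0.80 for Atg3, 0.22 to 0.32 for Atg4d and 0.79 to 1.02 for Sqstm1.

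Several mitosis genes fell, and most replication genes were not called. Of 9 tested mitosis genes 5 fell and none rose (8 and none with total counts), with a median of −0.99, where 24.3% of all genes tested fell. When low counts were not limited, 6 of 56 fell and none rose, with a median of −0.39. Mki67, a marker of cycling cells, fell from 24, 18, 22 and 13 counts to 2, 1, 0 and 4 (−3.01, SE 0.58), Kif22, a mitotic kinesin, by 3.56 (SE 0.67), Nusap1, a spindle protein, by 2.29 (SE 0.68) and Ncapg, a condensin subunit, by 0.99 (SE 0.15). The 3 tested symbols across from mitosis genes also fell, Exosc9, Cdc23 across from Kif20a (−4.03, SE 0.33) and Lcorl across from Ncapg (−2.51, SE 0.35). Kif20a itself was not called (−0.24), nor was Ccna2 across from Exosc9. Of 11 tested replication genes 2 rose and none fell (1 rose and 4 fell with total counts). Pola2, a subunit of the primase complex, went from 3 to 180 counts (ratio 76.6, 95% counting interval 25.8 to 375) and Tk1, thymidine kinase, rose by 0.65 (SE 0.18), while Lig1 (0.89, adjusted p = 0.0575) and Gins2 (0.79, adjusted p = 0.0709) were not called, Lig1 only with WT M1 replicate 2 included (1.01 without it). DNA damage and repair genes divided, with 6 of 15 rising and 7 falling (5 and 9 with total counts). Brca2, which acts in the repair of broken DNA by recombination, fell from 155, 191, 161 and 159 counts to 22, 27, 24 and 15 (−2.58, SE 0.26), with Gm42529 across from it, and Fancl, the ubiquitin ligase of the Fanconi anemia pathway, rose by 2.61 (SE 0.10). Fanca, of the same pathway, rose by 1.16 (SE 0.10) and Zfp276 across from it from 36, 49, 35 and 68 counts to 1020, 1493, 762 and 1052 (4.83, SE 0.20).

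Most tested ribosomal protein genes were not called, while those of folding rose more often than they fell with TMM but not with total counts. Of 33 tested ribosomal proteins 2 rose and 6 fell (none and 12 with total counts), where 26.9% and 24.3% of all genes tested did, and 10 fell without WT M1 replicate 2. Rpl31 (from 306 to 60 counts), Rpl5 (−0.81, SE 0.13) and Rpl27a (−1.39, SE 0.36) were among the 6, and with no limit on low counts none of 79 rose and 9 fell. Of 9 symbols across from ribosomal protein genes 1 rose and 6 fell, with Sphk2 across from Rpl18 falling by 3.40 (SE 0.20), Fam69a across from Rpl5 by 2.44 (SE 0.13) and Cand2 across from Rpl32 by 1.66 (SE 0.11). Sphk2 also lies across from Dbp, over 539 bases against 373 with Rpl18, and Dbp rose by 0.85. Of 13 ribosome biogenesis genes 3 rose and 4 fell (1 and 6 with total counts), including Ncl, nucleolin (−1.33, SE 0.29), and Dkc1, which modifies ribosomal RNA (−2.19, SE 0.32), among those that fell, and Rrp12, from 0 to 39 counts, and Tsr1 (0.50, SE 0.10, against −0.12 with total counts) among those that rose. Of 7 genes of the amino acid response and aminoacyl-tRNA synthetases 2 rose and 2 fell (1 and 3 with total counts). In this list and that of ribosome biogenesis the shares were near the 26.9% and 24.3% of all genes tested. Slc7a11, the cystine transporter, went from 3 to 38 counts and the methionyl-tRNA synthetase Mars rose by 1.01 (SE 0.24). The stress factor Atf5 (−0.56, SE 0.12) and the glutaminyl-tRNA synthetase Qars (−0.68, SE 0.28) fell. Qars was no longer called without WT M0 replicate 1 or 3 or WT M1 replicate 2 or 3 (−0.72 to −0.55). Of 13 heat shock and ER chaperone genes 7 rose and 1 fell (3 and 3 with total counts), with Hspa8 (1.49, SE 0.37), Hspa5 (1.29, SE 0.31), Calr (1.16, SE 0.19) and Hsp90ab1 (1.03, SE 0.16) among those that rose. Of 7 proteasome genes 3 rose and 1 fell (1 and 1 with total counts, and also with no limit on low counts). Psma7 rose by 3.07 (SE 0.60), Psmd2 by 1.22 (SE 0.34) and Psmd7 by 1.19 (SE 0.46), and Psmb7, a subunit that is exchanged in the immunoproteasome, fell by 1.92 (SE 0.38). Psmd7 was no longer called without WT M0 replicate 1, 2 or 3 or WT M1 replicate 1, 3 or 4 (0.88 to 1.14).

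Genes of the actin cytoskeleton rose more often than they fell, and the balance of integrin genes turned with the scaling. Growth factor and complement genes rose and fell at shares near those of all genes tested. Of 31 tested actin cytoskeleton genes 16 rose and 2 fell (11 and 3 with total counts, and 12 and 2 of 45 with no limit on low counts), with Tmsb10, which binds actin monomers, at 2.59 (SE 0.40), Msn, moesin, at 1.98 (SE 0.35), Lcp1, plastin, at 1.68 (SE 0.35) and Rac1, a GTPase of the leading edge, at −1.29 (SE 0.32). Epha1, across from the focal adhesion gene Zyx, rose from 55, 49, 45 and 47 counts to 573, 993, 470 and 574 (4.05, SE 0.20), and Zyx from 12 to 50 over the group (2.35, SE 0.62). Of 20 integrins and migration receptors 8 rose and 4 fell (3 and 8 with total counts). Without WT M1 replicate 4, 5 rose, and with no limit on low counts 4 of 31 rose and 4 fell. Itga5 (2.88, SE 0.69), Itgal (2.24, SE 0.67) and Fermt3, which activates integrins (1.85, SE 0.19), rose, and Itga6 (from 54 to 2 counts, ratio 21.1, 95% counting interval 5.58 to 179), Itgb5 (−3.82, SE 0.78), Itga4 (−1.02, SE 0.24) and Rarres2, the chemoattractant chemerin (−0.61, SE 0.12), fell. Of 14 growth factor, TGF-β and complement genes 4 rose and 3 fell (3 and 6 with total counts), shares near the 26.9% and 24.3% of all genes tested. C3, the central complement component, rose from 3, 4, 2 and 2 counts to 195, 241, 156 and 190 (6.43, SE 0.32, adjusted p = 7.56e-18) and Thbs1, thrombospondin, by 2.84 (SE 0.30) and C2, a complement protease, by 3.38 (SE 0.79), while Igf1, insulin-like growth factor 1 (−3.96, SE 0.61), Spp1, osteopontin (−3.78, SE 0.93), and Smad3, which carries TGF-β signals (−2.87, SE 0.91), fell. Of 15 housekeeping genes 6 rose and 3 fell (5 and 5 with total counts), with Actb rising by 1.49 (SE 0.20) and Pgk1, a glycolytic enzyme, by 3.93 (SE 0.74).

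Motifs of the factors named above were counted in the promoters of genes that changed, taken as the 250 bases before the start in RefSeq (GRCm38.p6). Both strands were searched, a match is a description only, and the motifs can overlap. An ISRE-like motif, GAAA and any 2 bases and again GAAA, was in 37 of 629 promoters of genes that rose (5.88%), in 24 of 157 that rose by more than 3 on the log2 scale (15.3%), in 4.14% of those that fell and in 2.63% of those not called, beside 3.46% of all promoters. A GAS-like motif, TTCNNNGAA, was in 10.2%, 15.3%, 7.01% and 5.60% of the same classes, beside 8.13% of all promoters. The NF-kB consensus, GGGRNWYYCC, was in 6.84%, 8.28%, 4.14% and 6.02%, beside 4.46% of all promoters. In these motifs N is any base, R is A or G, W is A or T and Y is C or T. Among rising genes with a mean of at least 50 counts and no opposite-strand exon, the promoters of those with the largest fold changes and an ISRE-like match (Rsad2, minus strand, and Gbp7, plus strand) or an NF-kB match (Tnfrsf8, minus strand, and B2m, plus strand) are shown 5′ to 3′ on the strand of the gene, with the match in capitals, so that the motif can be seen in place. Genes on the same chromosome as Gm4841 were left out of the choice of these promoters. Every match in capitals, ISRE-like or NF-kB, lies on the other strand and so reads as the reverse complement.
Rsad2, chr12:26456453-26456702: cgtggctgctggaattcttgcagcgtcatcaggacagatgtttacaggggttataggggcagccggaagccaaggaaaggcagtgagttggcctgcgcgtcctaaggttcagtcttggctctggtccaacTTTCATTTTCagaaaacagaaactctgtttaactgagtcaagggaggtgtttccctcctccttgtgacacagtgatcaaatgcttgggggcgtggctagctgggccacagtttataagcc
Gbp7, chr3:142530086-142530335: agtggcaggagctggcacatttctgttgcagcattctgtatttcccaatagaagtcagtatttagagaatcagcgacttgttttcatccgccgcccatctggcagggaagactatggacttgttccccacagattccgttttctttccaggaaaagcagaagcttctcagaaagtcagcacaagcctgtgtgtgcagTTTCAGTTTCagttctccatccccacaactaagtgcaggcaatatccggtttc
Tnfrsf8, chr4:145315165-145315414: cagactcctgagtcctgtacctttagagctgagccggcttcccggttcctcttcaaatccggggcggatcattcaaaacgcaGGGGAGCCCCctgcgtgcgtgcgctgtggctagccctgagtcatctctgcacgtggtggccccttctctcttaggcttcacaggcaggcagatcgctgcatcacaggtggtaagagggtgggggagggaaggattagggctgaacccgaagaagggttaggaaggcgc
B2m, chr2:122147437-122147686: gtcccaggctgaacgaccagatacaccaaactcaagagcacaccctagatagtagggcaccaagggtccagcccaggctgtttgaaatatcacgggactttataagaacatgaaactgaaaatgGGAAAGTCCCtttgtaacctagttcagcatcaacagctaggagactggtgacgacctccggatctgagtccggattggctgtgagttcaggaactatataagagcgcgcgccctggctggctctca
Counted from the start of the gene the match begins at −120 in Rsad2, −53 in Gbp7, −168 in Tnfrsf8 and −126 in B2m. B2m also holds 1 ISRE-like match and Gbp7 holds 2 GAS-like matches.

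The same stimulus was given to macrophages labelled Ltb4r2-/-, whose 8 libraries are separate from those of the WT comparison. Of 1560 genes called in WT and 1610 called in Ltb4r2-/-, 1344 were called in the same direction in both, 86.2% of the first and 83.5% of the second, and none in opposite directions. Across the 3047 genes, which are not independent replicates, the log2 fold changes had a Pearson correlation of 0.93. The difference of the response itself passed an adjusted p of 0.05 for 1 gene (0.0328% of 3047), and 141 genes had an unadjusted p under 0.05. That gene was Tep1, which encodes a telomerase-associated protein and lies, like Ltb4r2, on chromosome 14. Tep1 fell in WT from 1350, 1145, 1305 and 1140 counts to 292, 405, 255 and 311 (−1.62, SE 0.12, adjusted p = 2.43e-13) and had a log2 fold change of −0.19 (SE 0.13) in Ltb4r2-/-, a difference of 1.43 (SE 0.18, adjusted p = 7.41e-06). Exons of Tep1 overlap those of the antisense gene Gm26782 over 144 bases. Among genes described above the log2 fold changes were −8.04 in WT and −7.94 in Ltb4r2-/- for Cd163 and 7.41 and 7.38 for Mir6381, while those of Rmdn1 were −5.14 and −7.08 and did not pass the test of the difference (adjusted p = 0.363).

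**Figure D5:**
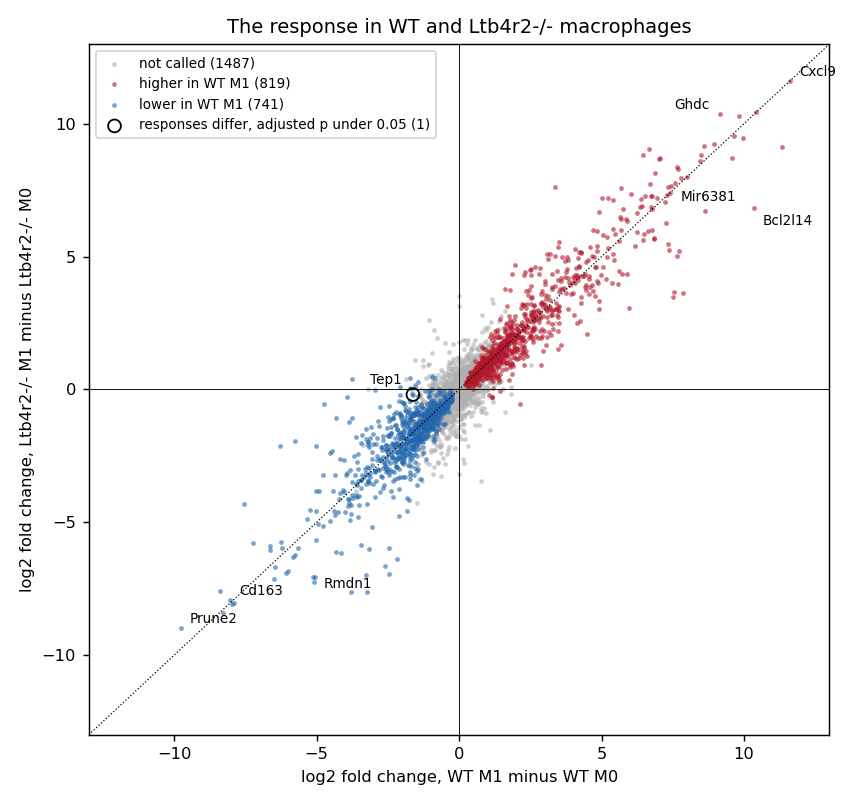
Log2 fold change of M1 against M0 in WT (horizontal axis) and Ltb4r2-/- macrophages (vertical axis) for the 3047 tested genes, coloured by the call in WT, with the dotted line marking equal responses. Most of the 819 rising and 741 falling genes lie near the line, and Tep1, the ringed gene, has −1.62 in WT and −0.19 in Ltb4r2-/-.

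In WT macrophages IL-4 gave a different picture for some of the genes named above, while others fell under both stimuli. That comparison uses the same WT M0 libraries, so the values are only set side by side. Cd163, at −8.04 in WT M1, was at −0.08 in WT M2, Prune2, which nearly vanished in WT M1, was at 0.52, and Mir6381 at 7.41 was at 1.36. Cxcl9, Ccl5, Nos2 and Ptgs2 had 0 counts in all WT M2 libraries. Rmdn1 (−5.14 and −2.27), Card14 (−3.88 and −1.91), Cx3cr1 (−4.53 and −3.98) and Selenop (−4.44 and −3.15) fell under both stimuli. 3110062M04Rik (2.03 and −1.30) and Zmynd15 (2.18 and −0.71) rose with LPS plus IFN-γ and fell with IL-4.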

How the data were processed

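RNA of 24 BMDM libraries was sequenced from a strand-marking mRNA kit. The authors trimmed reads with cutadapt, checked them with FastQC, used STAR with mm10 for alignment and HTSeq for counts per gene, and these deposited raw counts were analysed. The deposited log2 values equal log2(count / DESeq2 size factor + 1) within 4.97e-14 and were used only for that check. The annotation, tool versions and how HTSeq treated strand are not given in the sources used here.

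All 24 libraries entered 1 edgeR 4.0.16 quasi-likelihood fit (R 4.3.3, TMM, filterByExpr with a minimum of 10 counts and a total of 15, 6 group means), tested on simulated data, with Benjamini-Hochberg adjustment over 3047 genes and a threshold of 0.05. The SE of a log2 fold change was its size divided by the square root of F. CPM used TMM library sizes, and totals were 445115 to 729580 counts per library. Intervals and limits of a count of 0 (3 counts over the group for folds) cover counting error only. The labels call the replicates biological, and the study describes its data points as coming from different animals. Whether WT M0 and WT M1 libraries of the same number share an animal is not stated. For single genes the exact permutation test of 4 against 4 cannot go below p = 0.0286. Exon overlaps on opposite strands came from GENCODE M21 (GRCm38), promoters and the microRNA from RefSeq (GRCm38.p6). The text names the 10 largest changes in each direction among called genes with a mean of at least 50 counts, the same among those with no opposite-strand exon, the 4 members of each list with the smallest p, the 5 genes with the most counts, and partners, and some of these are not reported here. Other genes named were chosen after their values were seen. The comparison and the gene lists were chosen with earlier results of these data known. Alternatives were RLE size factors, total counts, other filters, DESeq2 1.42.0, the 8 libraries alone, a replicate block, each library left out, other overlaps and another promoter window.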

Additional observations from a re-analysis of the deposited data

Results flagged for a closer look

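Each of 464 sets of 4 libraries, the CPM of a gene named above or a library measure within WT M0 or WT M1, was searched for a library whose gap to the nearest of the other 3 exceeded Dixon's 95% critical value as a share of the range. This flagged 26 sets, where chance flags about 1 in 20. In WT M0 replicate 4 lay below the other 3 for Gp1ba (103 CPM against 194 to 208), Gm16712 (1747) and Dkc1 (67.4 against 116 to 121), and above them for Slfn5os (1214 against 785 to 843), Cd274 (11.9, from 6 counts), Cflar (7.93) and Calr (115). Of the other WT M0 libraries replicate 1 stood apart for C2 (6.43), replicate 2 for Mrc1 and Atp6v0d2 (18.6 each) and replicate 3 for Gbp2 (9.31, from 6 counts), Il18bp (34.1), A930015D03Rik (54.3) and Psmb9 (41.9). In WT M1 replicate 1 was highest for Parp9 (3252 against 2843 to 2865), Tnfsf9 (115), Chn2 (10.8) and Itgb5 (8.67). WT M1 replicate 2 was lowest for Tnfrsf1b (81.5 against 152 to 156) and highest for Unc5a (1626). WT M1 replicate 3 was highest for Tmem140 (109 against 52.0 to 61.0) and Hif1a (125) and lowest for Gapdh (62.3 against 124 to 136), and replicate 4 was highest for Hk3 (70.7), Mars (146) and Spp1 (9.76). Several of these rest on 10 counts or fewer.

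Tep1 was the gene whose response differed between the genotypes, by 1.43 on the log2 scale in the test of the difference, with a fall in WT and a log2 fold change of −0.19 in the libraries labelled Ltb4r2-/-.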

How the results depend on the processing

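Of 239 tested genes named above, 208 kept their call and direction in all 16 alternatives that could test them. With total counts 475 genes rose and 1358 fell, 25 were called opposite to TMM, and Stab1 (−0.19), Atg4d (−0.25), Tsr1 (−0.12) and Ctsb (−0.51) turned negative, while Tk1, Cp, Mars, Sqstm1, Psmd7, Psmd2, Ndufa2, Ndufa13, Hspa5 and Mcl1 were no longer called. With a mean of at least 50 counts, which left 959 genes, 315 rose and 355 fell. The other counts were 787 and 777 with RLE, 818 and 847 of 13709 genes with no filter, 658 and 649 of 2208 in the 8 libraries alone and 951 and 800 with DESeq2. Leaving out 1 library gave 766 to 798 and 707 to 759.

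The response differed between the genotypes in 10 genes with no filter and in 1 to 3 when 1 library was left out, with 3 without WT M0 replicate 1 and 2 without WT M0 replicate 3 or WT M1 replicate 4.

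Libraries were not paired by replicate number in the main fit, because the rule asked that every correlation of same-numbered deviations exceed 0.1. These were 0.118, 0.0509, 0.0884 and 0.0817, and each library correlated best with its own number, so the rule does not exclude a pairing. With a replicate block 804 genes rose and 721 fell, of which 793 and 707 were among those without it, and 1 differed between the genotypes. With at least 100 bases of exon overlap 4691 genes had an opposite-strand partner and held 84.3% of the counts. With promoters to 50 bases after the start 46 rising genes held the ISRE-like motif. Depth limits the low-count genes: a count of 0 allows 4.66 to 7.79 CPM in a library.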

Other observations

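WT M1 replicate 2 held the most counts of that group for several genes that fell, with 3162 of Ctsa against 838 to 1557 in the other 3 libraries, 164 of Apoe against 24 to 67, 108 of Lyz2 against 32 to 48 and 39 of Star against 9 to 23. It lay below every WT M0 library in each of these genes.

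Tnfrsf8, at 0 counts in all WT M0 libraries, also rose with IL-4, in WT M2 against the same WT M0 libraries (adjusted p = 0.00682, edgeR's quasi-likelihood test), where the fitted log2 fold change of 4.74 depends on the prior count. Exosc9 rose with IL-4 (1.69, adjusted p = 5.76e-06) and was nearly absent after LPS plus IFN-γ, where 2 counts were left over the 4 libraries.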
